A study of Mus musculus with 6 samples.

Results

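Mineral forms in dentin, enamel and bone when phosphate is released locally and inhibitors of crystal growth are removed. The 7 genes described here, of 19060 in the count table, encode enzymes and transporters of this process: the phosphatases Alpl and Phospho1, the pyrophosphate-generating Enpp1, the pyrophosphate exporter Ank, the sodium-phosphate cotransporters Slc20a1 and Slc20a2, and the secretory-pathway kinase Fam20c. They were chosen by name for this role, with no measured value in the rule, though earlier results of these data were known. All 7 were present in the table and passed the filter on low counts.

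RNA was sequenced from the proximal incisor in 3 control and 3 mutant samples. Control mice were Fgfr1fl/fl in the labels' extraction protocol, with the floxed Fgfr1 allele and no Cre named, and wild type in the labels' genotype field. Mutant mice were Gli1CreER;Fgfr1fl/fl, written Gli1-Cre;Fgfr1fl/fl in the labels, in which Cre is expressed from Gli1 and activated by tamoxifen. Both groups were on a mixed genetic background. Tamoxifen was injected at 1 month of age and the incisors were collected 1 week later. By that protocol the floxed allele was common to both groups, and cells of the sample without active Gli1CreER kept Fgfr1. The labels do not say whether each sample was 1 animal, so p-values measure the spread between these samples only. The comparison asked how loss of the FGF receptor in Gli1+ cells changed the transcripts of the incisor.

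Inorganic pyrophosphate, made from extracellular ATP by Enpp1 or released to the outside with the help of Ank, blocks crystal growth. Alpl, tissue-nonspecific alkaline phosphatase, cleaves it to phosphate, and Phospho1 releases phosphate inside matrix vesicles. Slc20a1 and Slc20a2 carry phosphate into cells. Fam20c phosphorylates secreted proteins of dentin, enamel and bone, and its loss impairs the mineralization of teeth.

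Total counts were 31060222 to 32712448 in the control and 5276557 to 11819576 in the mutant samples, so the groups did not overlap in depth. Sample-sheet numbers repeat between the groups and the sequencing run is not given, so run and genotype cannot be told apart. Fgfr1 was 529, 924 and 434 CPM (counts scaled to a common library size by the upper quartile) in control and 148, 318 and 262 in mutant samples, a log2 fold change of -1.37 ± 0.40 (SE, n = 3 per group; edgeR's quasi-likelihood test with Benjamini-Hochberg adjustment over all genes tested, adjusted p = 0.0881). Every mutant sample was below every control sample. Markers of odontoblasts and ameloblasts were abundant in all samples, Dspp at 1590 CPM or more and Amelx at 15180 CPM or more (both cell types belong to the labelled tissue). The summed level of 5 ameloblast markers was 84400 to 118600 CPM in control and 30620 to 68910 in mutant samples. The sum of 4 skeletal muscle markers was 3.93, 2178 and 17.3 CPM in control and 3653, 112 and 650 in mutant samples.

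The genomic positions were taken from GENCODE M21 on GRCm38 (mm10), the build to which the reads were aligned. Alpl lies at chr4:137741733-137796384 on the minus strand, Enpp1 at chr10:24637914-24712159 on the minus strand, and Ank at chr15:27466677-27594909 on the plus strand. Slc20a1 lies at chr2:129198764-129211616, Slc20a2 at chr8:22476788-22569612, Phospho1 at chr11:95824499-95832140 and Fam20c at chr5:138754514-138810077, all on the plus strand. The 7 genes lie on 7 different chromosomes. At most 8.10% of the exonic bases of Slc20a1, and 1.80% or less of those of Alpl, Enpp1, Ank, Slc20a2 and Fam20c, are also annotated to any one other gene. The exception was Phospho1, of whose 2029 exonic bases 89.6% are also annotated to Zfp652 on the same strand and 84.2% to Abi3 on the opposite strand. How reads in such shared exons were assigned, and whether strand was used, is not given in the sources used here, so the level of Phospho1 is uncertain.

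To show the sequence at the start of genes on both sides of the pyrophosphate balance, the 250 bases before the outermost annotated start of the gene that cleaves pyrophosphate, the gene that makes it and the gene that exports it are given (RefSeq, GRCm38.p6, read in the direction of transcription). Capitals mark matches on either strand to the GC box (GGGCGG), the CCAAT box, the TATA box (searched as TATAA), the RUNX motif (TGTGGT), the ETS motif (CCGGAA) or the AP-1 motif (TGANTCA).
Alpl, chr4:137796385-137796634, minus strand: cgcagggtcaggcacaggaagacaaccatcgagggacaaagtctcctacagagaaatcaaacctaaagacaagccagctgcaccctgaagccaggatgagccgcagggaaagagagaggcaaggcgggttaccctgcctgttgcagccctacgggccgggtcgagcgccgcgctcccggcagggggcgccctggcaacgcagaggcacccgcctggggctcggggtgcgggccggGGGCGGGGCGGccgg
Enpp1, chr10:24712160-24712409, minus strand: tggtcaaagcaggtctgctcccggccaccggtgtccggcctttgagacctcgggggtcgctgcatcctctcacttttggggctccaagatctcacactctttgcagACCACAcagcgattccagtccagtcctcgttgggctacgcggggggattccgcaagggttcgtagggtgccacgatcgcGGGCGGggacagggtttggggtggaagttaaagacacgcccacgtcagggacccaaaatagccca
Ank, chr15:27466427-27466676, plus strand: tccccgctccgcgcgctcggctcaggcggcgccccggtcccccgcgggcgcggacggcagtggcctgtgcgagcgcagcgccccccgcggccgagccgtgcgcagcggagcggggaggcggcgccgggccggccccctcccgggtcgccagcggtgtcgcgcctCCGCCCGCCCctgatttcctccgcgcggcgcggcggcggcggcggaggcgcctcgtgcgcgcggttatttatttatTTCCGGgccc

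The Alpl window held 2 GC boxes that overlap by 1 base, at 15 and 10 bases before the start. The Enpp1 window held 1 GC box and 1 RUNX match, and the Ank window held 2 GC boxes, which overlap, and 1 ETS match that begins 10 bases before the start. RefSeq windows were available for 6 of the 7 genes, all but Slc20a2. A GC box was found in 6 of these 6 windows, against 32.7% of all 32851 windows of this length. A CCAAT box was found in 3 (Slc20a1, Phospho1 and Fam20c), against 33.8%, and TATAA in 0, against 22.8%. RUNX letters were found in 2 (Enpp1 and Slc20a1) against 14.0%, ETS in 1 (Ank) against 12.0% and AP-1 in 1 (Phospho1) against 6.75%. The windows were rich in G and C, from 61.2% for Enpp1 to 81.2% for Ank and Fam20c, and the latter value was above 99.1% of all windows. The Fam20c window, chr5:138754831-138755080, lies inside the GENCODE span of the gene, which starts at 138754514.

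Per length, the phosphatase Alpl was the most abundant of the 7 transcripts in every sample and Slc20a2 the second. In control samples Alpl reached 461 ± 118 CPM per kb of its longest transcript (mean ± SD, n = 3) and Slc20a2 213 ± 60.6, levels above those of 99.2% and 98.4% of the genes tested. Ank followed with 40.3 ± 7.81 and Fam20c with 33.1 ± 6.71 CPM per kb, and these neighbours overlapped. Enpp1, Phospho1 and Slc20a1 lay lowest, at 8.52 ± 2.88, 7.54 ± 2.53 and 6.28 ± 2.11 CPM per kb, and did not differ from each other beyond their spread. In mutant samples the first 4 places by mean were the same, Alpl at 289 ± 51.0 and Slc20a2 at 115 ± 4.45, and the order of the lowest 3 varied between samples. Phospho1 ran from 1.88 CPM per kb in mutant sample 2 to 22.2 in mutant sample 1, where it was above Ank and Fam20c.

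**Figure D1:**
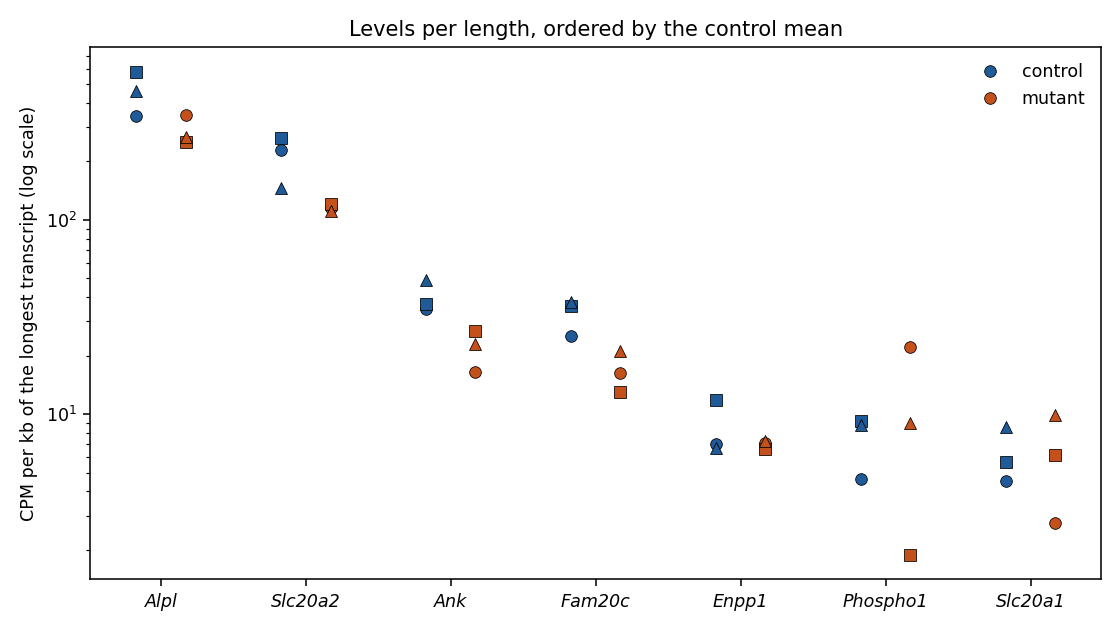
Level of each gene in CPM per kb of its longest transcript, on a log axis, with 1 point per sample (control blue, mutant orange; circle, square and triangle are samples 1, 2 and 3). Genes are ordered by the control mean, from Alpl at 461 to Slc20a1 at 6.28. Alpl and Slc20a2 stand above the other 5 genes in all 6 samples.

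Genes with different roles, the exporter Ank, the importer Slc20a2 and the kinase Fam20c, were lower in the mutant incisor, by 1.82-fold, 1.85-fold and 1.96-fold, and for each of them the highest mutant value was under the lowest control value. Ank, Slc20a2 and Fam20c passed the threshold that the study used, an unadjusted p under 0.05 with a change of more than 1.5-fold, and 0 passed in the other direction. Of all 15826 genes tested, 19.8% passed that threshold in either direction and 8.92% were lower in the mutant, and the groups did not overlap with the mutant lower in 16.3%. At an adjusted p under 0.05, 0 of the 7 genes passed in edgeR's quasi-likelihood test, against 6.79% of all genes. DESeq2 called 3 of the 7 at that threshold, the same Ank, Slc20a2 and Fam20c. It also called more genes over the whole table, 1609 against 1074 in edgeR. The median log2 fold change of the 7 genes was -0.68, beside -0.04 over all genes tested.

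**Figure D2:**
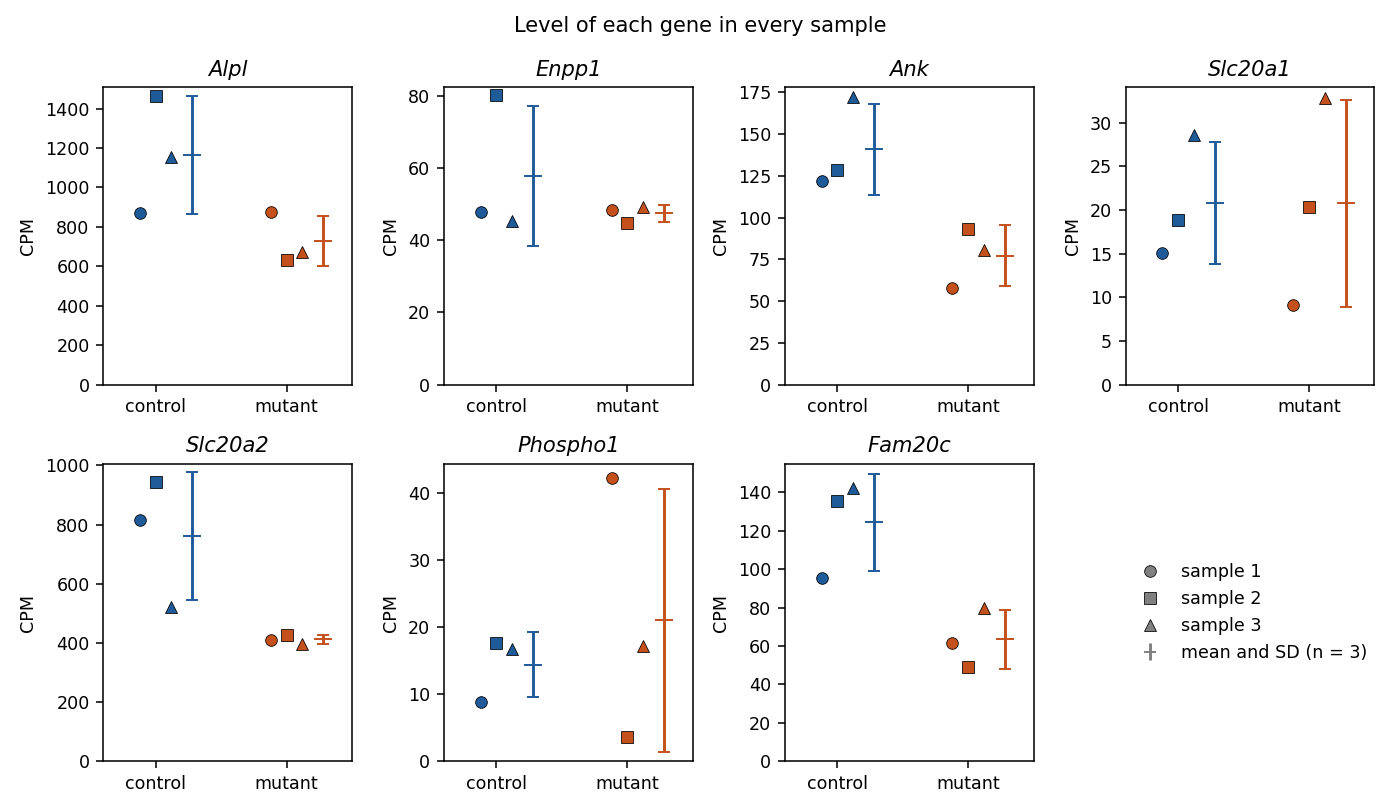
CPM of each gene in every sample, with 1 panel per gene, each on its own axis from 0. Circles, squares and triangles are samples 1, 2 and 3, and the bar beside them is the mean ± SD (n = 3). Ank, Slc20a2 and Fam20c show no overlap between control and mutant, whereas Enpp1, Slc20a1 and Phospho1 overlap widely and Alpl overlaps through control sample 1 and mutant sample 1.

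Alpl, which removes pyrophosphate, was 869, 1465 and 1157 CPM in control and 875, 635 and 675 in mutant samples. Mutant sample 1 was just above the lowest control sample, and mutant samples 2 and 3 were below all controls. Its log2 fold change of -0.68 ± 0.31 (SE) did not pass either threshold (edgeR, adjusted p = 0.272). With edgeR's TMM scaling, with total counts, with DESeq2, with limma-voom and without control sample 1, Alpl passed the study's threshold, so that this call depended on the processing.

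Phospho1, the vesicle phosphatase, was 8.86, 17.6 and 16.7 CPM in control and 42.3, 3.59 and 17.2 in mutant samples. The highest and the lowest values were both mutant samples, and the groups overlapped. Its log2 fold change was 0.54 ± 0.77 (edgeR, adjusted p = 0.783) and turned to -0.49 without mutant sample 1. That sample had the smallest total and rested on 194 counts of Phospho1. In mutant sample 1 the summed skeletal muscle markers were 3653 CPM, Acta1 at 1662 and Ckm at 906, and the summed osteoclast markers were 566 CPM, Ctsk at 311 and Acp5 at 156. In the other 5 samples the muscle sum ran from 3.93 to 2178 CPM and the osteoclast sum from 136 to 380. Of the 4 muscle and 4 osteoclast markers, 0 and 1 (Ctsk) passed the study's threshold between the groups, and their part in the Phospho1 values was not tested. These lists were set beside Phospho1 after its values were seen. The Schwann cell marker Mbp (45.6 CPM, against 14.4 to 34.3 in the other samples) and the dental mesenchyme sum (2233 CPM, against 1242 to 1903; Vim at 1764 and Msx1 at 362) were also highest in mutant sample 1. Zfp652, which shares most of the Phospho1 exons, was 40.1, 73.1 and 54.3 CPM in control and 60.5, 73.7 and 82.9 in mutant samples. Abi3 was 4.515, 4.92 and 2.95 CPM in control and 1.09, 2.05 and 2.72 in mutant samples. Both partner genes were looked up after the Phospho1 values were seen, and the part of shared reads was not tested.

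**Figure D3:**
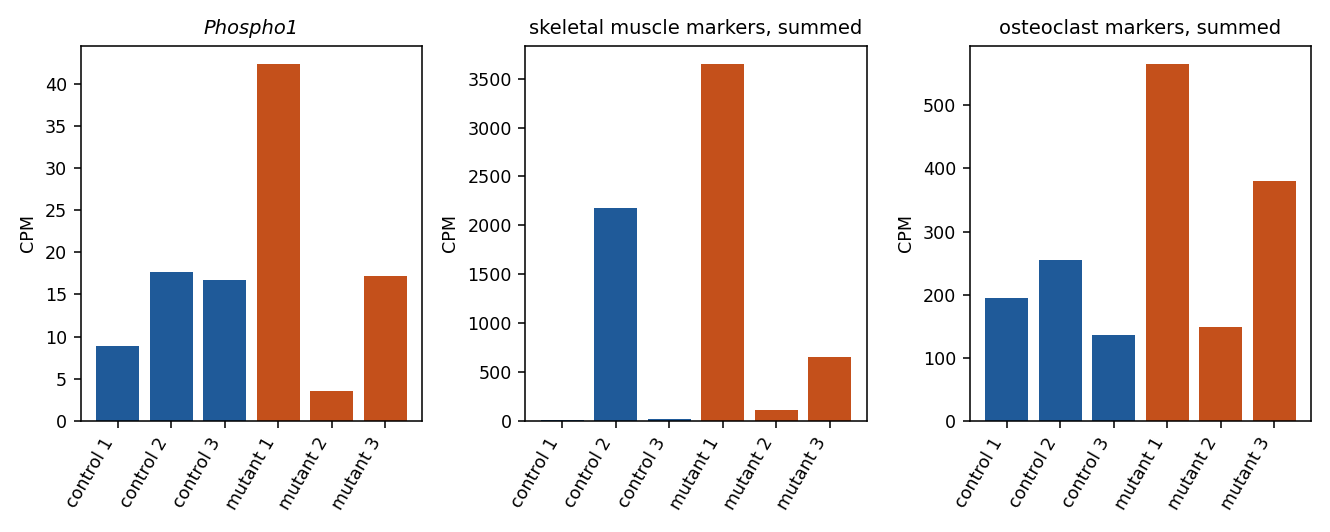
Bars give CPM in each of the 6 samples for Phospho1 and for the summed markers of skeletal muscle (Acta1, Ckm, Myh1, Tnnt3) and of osteoclasts (Acp5, Ctsk, Mmp9, Atp6v0d2), each from 0 on its own axis. All 3 quantities are highest in mutant sample 1, at 42.3, 3653 and 566 CPM, as are Mbp and the dental mesenchyme sum, which are not drawn.

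Enpp1, the enzyme that makes pyrophosphate from ATP, was 47.8, 80.2 and 45.2 CPM in control and 48.2, 44.7 and 49.2 in mutant samples. Control sample 2 stood above the other 5 samples, which lay between 44.7 and 49.2 CPM. A log2 fold change of -0.28 ± 0.28 was obtained (edgeR, adjusted p = 0.664), and it was 0.03 without control sample 2.

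Ank, which exports pyrophosphate, was 122, 129 and 172 CPM in control and 57.8, 93.4 and 80.7 in mutant samples. The highest mutant sample was below the lowest control sample. On the log2 scale Ank changed by -0.86 ± 0.26 (edgeR, adjusted p = 0.105). Without control sample 3 the value was -0.69 (edgeR, adjusted p = 0.401) and no longer passed the study's threshold.

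Slc20a2, also called PiT2, was 815, 944 and 522 CPM in control and 409, 429 and 397 in mutant samples. The mutant samples were close together (SD 15.9 CPM) and the controls spread (SD 216 CPM), and the groups did not overlap. Slc20a2 changed by -0.88 ± 0.29 on the log2 scale (edgeR, adjusted p = 0.129). Without mutant sample 3 it was at -0.87 (edgeR, adjusted p = 0.209), and the unadjusted p rose over 0.05.

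Slc20a1, also called PiT1, was 15.03, 18.9 and 28.6 CPM in control and 9.17, 20.3 and 32.9 in mutant samples. The mutant samples held both the lowest and the highest value. Its log2 fold change was 0.00 ± 0.51 (edgeR, adjusted p = 0.998), and its sign changed with the scaling, so no direction is given. With an SE of 0.51, a change of the size seen in Slc20a2 was not detectable for Slc20a1.

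Fam20c, the secretory-pathway kinase, was 95.6, 136 and 142 CPM in control and 61.5, 49.2 and 79.7 in mutant samples. All mutant samples were below all control samples. Fam20c changed by -0.97 ± 0.27 on the log2 scale (edgeR, adjusted p = 0.0780), and each of the 6 fits without 1 sample kept it past the study's threshold.

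The 3 lower genes all lost the study's threshold once each gene's counts were corrected for transcript length and GC content. Of all 15826 genes tested, 2384 passed that threshold after the correction, against 3137 before it. The correction was fitted on these same 6 samples, so differences of processing and of genotype within it cannot be told apart. After the correction the log2 fold changes were -0.55 ± 0.25 for Ank (edgeR, adjusted p = 0.349), -0.47 ± 0.25 for Slc20a2 (adjusted p = 0.432) and -0.33 ± 0.24 for Fam20c (adjusted p = 0.617), and that of Alpl was -0.33 ± 0.27 (adjusted p = 0.663). The offset fitted to length and GC content, as mutant minus control, was -0.31, -0.41, -0.62 and -0.35 on the log2 scale for these 4 genes, and -0.09 for Enpp1. Fam20c had the longest transcript and the highest GC content of the 3, at 3763 bases and 57.6%. Fgfr1 itself was -0.76 after the correction and still passed the study's threshold (edgeR, adjusted p = 0.255). All 4 genes kept a negative sign in all 15 alternatives. Under scaling to total counts the median of all genes was -0.30, and Ank, Slc20a2 and Fam20c lay at -1.11, -1.16 and -1.25.

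**Figure D4:**
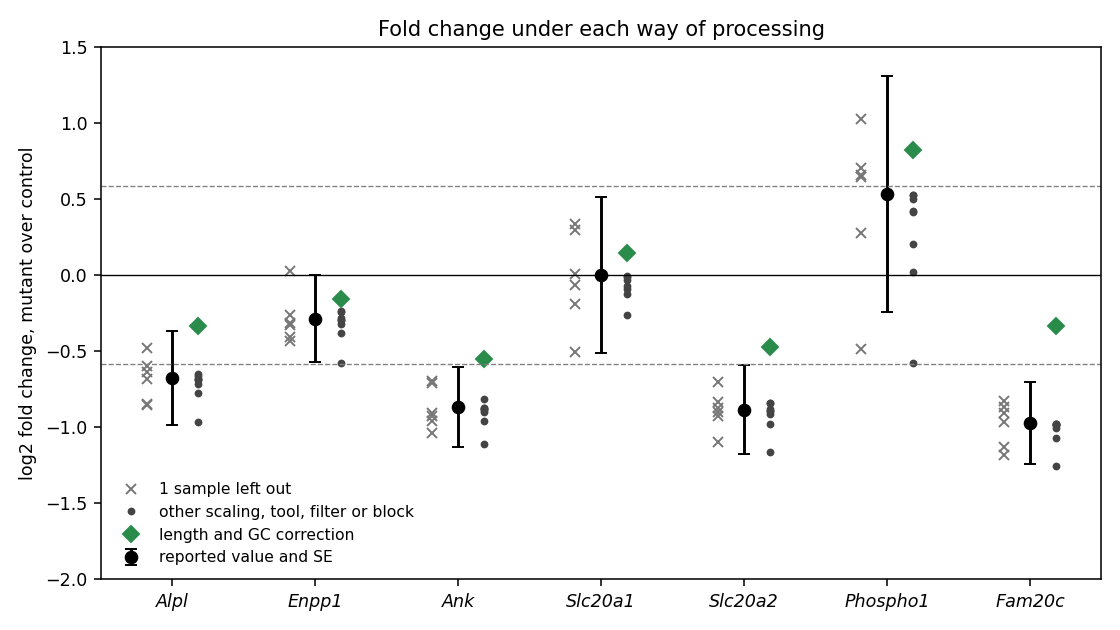
Log2 fold change of mutant over control for each gene: black circles with bars are the reported values ± SE, crosses are fits with 1 sample left out, dots are other scalings, tools, filters or the replicate block, and green diamonds are after correction for length and GC content. Dashed lines mark 1.5-fold. For Ank, Slc20a2 and Fam20c the diamonds, at -0.55, -0.47 and -0.33, lie above the lower dashed line, and all other points lie below it.

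Estimates below 0 were also found for all 5 ameloblast markers, Amelx with a log2 fold change of -1.23 ± 0.67 (edgeR, adjusted p = 0.370) and Ambn with -1.13 ± 0.57 (adjusted p = 0.325), down to Klk4 with -0.001, and 0 of 5 passed the study's threshold. Amelx and Ambn did not overlap between the groups, with the mutant lower, as was so for 16.3% of all genes tested. Fewer cells of a type and less RNA per cell cannot be told apart in such samples. Odontoblast markers summed to 20930 to 58760 CPM in control and 20000 to 25630 in mutant samples, and osteoblast markers to 3928 to 6816 and 5616 to 6958, with 0 of 3 passing in each list. Most of the odontoblast sum was Col1a1, at 18510 to 50910 CPM in control and 16460 to 22210 in mutant samples. Dental epithelium markers summed to 1586 to 3213 CPM in control and 1410 to 1531 in mutant samples, and 0 of 5 passed. Of these, 4 had a lower and 1 a higher estimate in the mutant. Krt14 (log2 -0.64 ± 0.33) and Krt5 (log2 -0.62 ± 0.35) did not overlap between the groups. Epcam had the higher estimate (log2 0.58 ± 0.27), and Cdh1 was at -0.25 ± 0.36, both with overlap. Endothelial markers summed to 132 to 221 and 111 to 115 CPM, and 0 of 4 passed, with no overlap for Pecam1 (log2 -0.70 ± 0.31) and Cdh5 (log2 -1.02 ± 0.46). The other endothelial markers, Kdr (log2 -0.09 ± 0.35) and Emcn (log2 0.05 ± 0.41), overlapped. Of 3 erythroid markers, the globin Hba-a1 fell by 4.12-fold (edgeR, adjusted p = 0.0460) and the globin Hbb-bs rose by 3.52-fold (edgeR, adjusted p = 0.0727). Beside Ctsk, these were the markers past the study's threshold in the 11 lists. Higher estimates were found for 4 of 5 dental mesenchyme, 4 of 4 Schwann cell and 2 of 4 macrophage markers. The part of all these cell types in the lower levels of Ank, Slc20a2 and Fam20c was not tested.

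The balance of opposing or alternative members was compared as a ratio of counts within each sample, which does not depend on the scaling, with 3 pairs and an exact two-sided permutation test. With 3 against 3 samples the smallest p is 0.1. Alpl exceeded Enpp1 by 18.2-, 18.3- and 25.6-fold in control and by 18.1-, 14.2- and 13.7-fold in mutant samples. The log2 ratio was lower by a mean of -0.42 in the mutant (exact permutation p = 0.1, Benjamini-Hochberg adjusted 0.3), and the groups were parted only by the small step between 4.183 in control sample 1 and 4.181 in mutant sample 1.

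Slc20a1 stood at 0.0185, 0.0200 and 0.0548 of the Slc20a2 count in control and at 0.0224, 0.0474 and 0.0828 in mutant samples. The ranges overlapped (log2 difference 0.71, exact permutation p = 0.4, adjusted 0.6). Alpl exceeded Phospho1 by 98.1-, 83.0- and 69.3-fold in control and by 20.7-, 177- and 39.2-fold in mutant samples (log2 difference -0.66, exact permutation p = 0.6, adjusted 0.6). The mutant values lay on both sides of the controls.

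For each gene, the most similar profiles over the 6 samples were sought among 9706 genes of at least 10 CPM, as the root mean square difference of centred log2 CPM. Ank was closest to Shisa5 (0.0531) and Zbtb5 (0.0882), Alpl to Hcfc1 (0.0879) and Mvb12b (0.0952), and Fam20c to Atg9a (0.0928) and Sec14l1 (0.0950). Enpp1 was closest to Antxr1 (0.0919) and Zfp512b (0.0959), and Ift122 (0.126) was among the 2 closest to Slc20a2. The profile of Slc20a1 was nearest to that of Tprn (0.153) and Calb1 (0.185). Phospho1 had the least close neighbours, the osteoclast marker Acp5 (0.291) and Tirap (0.306). Acp5, tartrate-resistant acid phosphatase, was 42.0, 74.3 and 41.7 CPM in control and 156, 18.4 and 72.4 in mutant samples, with mutant sample 1 highest and mutant sample 2 lowest, as in Phospho1. These likenesses are descriptions over 6 samples that share their libraries.

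Of 34 other genes of phosphate handling and mineralization, 29 were in the table and 28 were tested. Of the 28 tested, 23 had a lower and 5 a higher estimate in the mutant, with a median log2 fold change of -0.44. Over all 15826 genes tested, 8204 had a lower and 7622 a higher estimate, with a median of -0.04. By the study's threshold 3 fell (Fam20a, Smpd3 and Anxa6) and 2 rose (Ppa2 and Amtn), 5 of 28 beside the 19.8% of all genes. At an adjusted p under 0.05 only Fam20a passed, a call that most alternatives did not keep. Slc34a1, Slc34a3, Abcc6, Fgf23 and Ahsg were not analysed here, and Mepe did not pass the filter on low counts.

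Fam20a, a pseudokinase that activates Fam20c, was 104, 177 and 166 CPM in control and 68.3, 64.2 and 53.1 in mutant samples. The groups did not overlap, and the fall of 2.41-fold (log2 -1.27 ± 0.27; edgeR, adjusted p = 0.0464) was larger in estimate than that of Fam20c, a difference that was not tested. The adjusted call held in 5 of 15 alternatives, with adjusted p from 0.000736 (DESeq2) to 0.190 (without control sample 3). It was lost with the replicate block (edgeR, adjusted p = 0.0552) and after correction for length and GC content (log2 -0.81; edgeR, adjusted p = 0.110), and without each sample in turn except control sample 1. The study's threshold was passed in all 15. Fam20b, the xylose kinase of the same family, was 103, 104 and 129 CPM in control and 64.0, 99.6 and 55.0 in mutant samples (log2 -0.62 ± 0.28; edgeR, adjusted p = 0.258) and did not pass.

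Smpd3, neutral sphingomyelinase 2, whose loss impairs skeletal mineralization, was 75.9, 93.5 and 130 CPM in control and 57.8, 64.2 and 46.9 in mutant samples (log2 -0.83 ± 0.27, edgeR, adjusted p = 0.124). After correction for length and GC content its value was -0.20 (edgeR, adjusted p = 0.815). Ppa2, the mitochondrial pyrophosphatase, rose from 24.7, 15.9 and 25.8 to 54.6, 35.5 and 49.98 CPM (log2 1.08 ± 0.32, edgeR, adjusted p = 0.0961). The correction left it at 1.07 (edgeR, adjusted p = 0.131). Enpp6, a choline-specific relative of Enpp1, was 22.2 to 105 CPM in control and 42.4 to 98.8 in mutant samples and did not pass. The phosphate exporter Xpr1 did not pass either (log2 -0.51 ± 0.40, edgeR, adjusted p = 0.549).

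In the hormone axis, 0 of 4 tested genes passed. Phex, the endopeptidase mutated in X-linked hypophosphatemia, was 204, 424 and 132 CPM in control and 244, 300 and 195 in mutant samples, and the vitamin D receptor Vdr was 61.8 to 111 and 52.5 to 85.1. Both overlapped between the groups. Galnt3, a glycosyltransferase that protects Fgf23 from cleavage, reached at most 11.8 CPM.

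Among the secreted phosphoproteins and enamel proteins, on several of which Fam20c acts, 1 of 8 passed. Amtn, amelotin of maturation-stage enamel, rose from 1078, 1141 and 1188 to 1428, 2006 and 2971 CPM (log2 0.91 ± 0.35, edgeR, adjusted p = 0.190). After correction for length and GC content its value was -0.15 (edgeR, adjusted p = 0.924), so that its direction turned. Amelx and Ambn, given with the ameloblast markers, did not pass. Dspp, the major dentin phosphoprotein, was 2388, 7742 and 1590 CPM in control and 2181, 3498 and 3359 in mutant samples (log2 -0.38 ± 0.60, edgeR, adjusted p = 0.809). The inhibitor Mgp, matrix Gla protein, was 97.7 to 134 CPM in control and 57.2 to 103 in mutant samples and did not pass. Of the annexins found in matrix vesicles, Anxa6 fell from 245, 247 and 227 to 178, 151 and 138 CPM (log2 -0.62 ± 0.22, edgeR, adjusted p = 0.155), whereas Anxa2 and Anxa5 overlapped. After correction for length and GC content Anxa6 was at -0.40 (edgeR, adjusted p = 0.334) and did not pass.

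**Figure D5:**
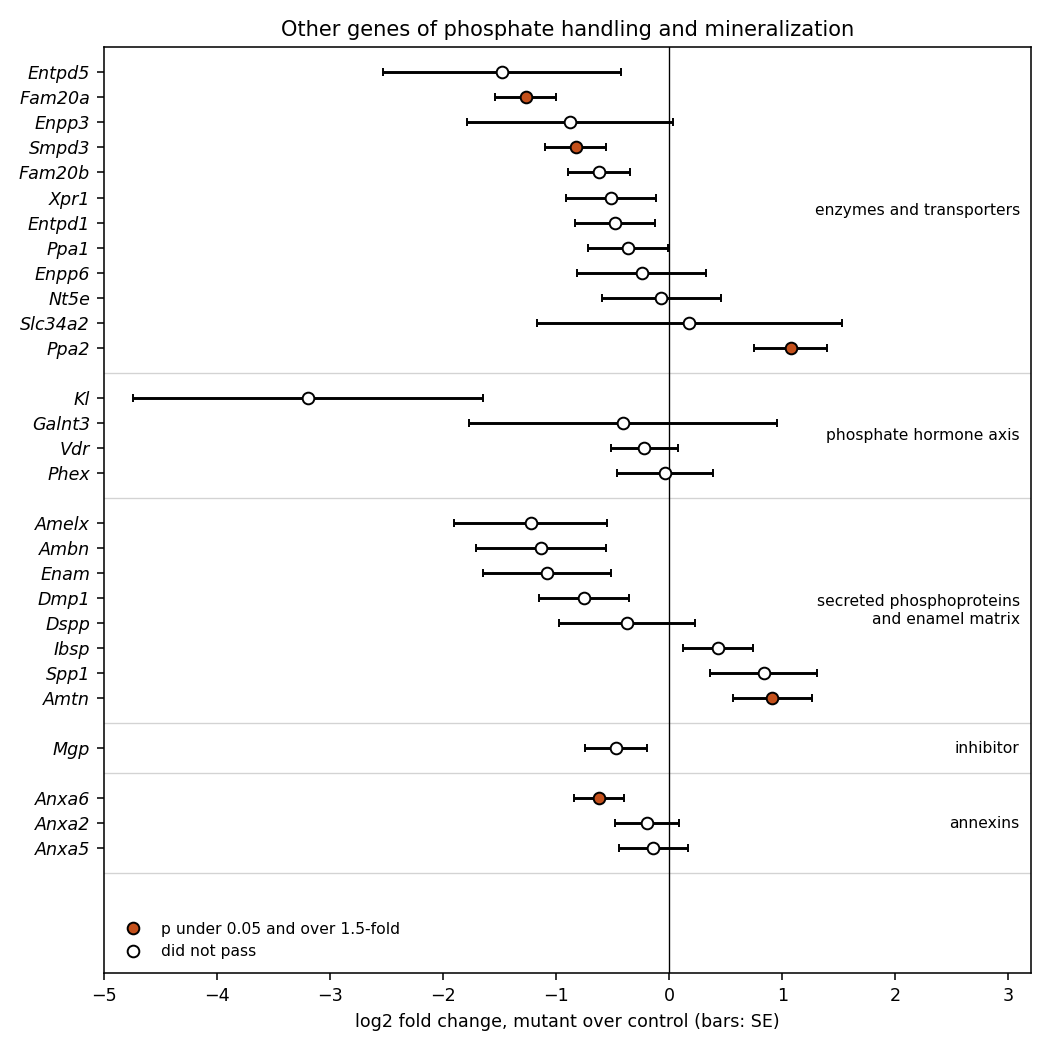
Log2 fold change ± SE of mutant over control for the 28 tested genes, in 5 groups by role, filled where p was under 0.05 and the change over 1.5-fold. The filled points are Fam20a, Smpd3 and Anxa6 below 0 and Ppa2 and Amtn above it. Kl, at the far left, rests on 0 counts in 2 of 3 mutant samples and did not pass (it was singled out after its values were seen).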

How the data were processed

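Single reads from 3 control and 3 mutant incisor samples were trimmed and aligned to mm10 in Partek Flow. The submitters' processing notes name TopHat2 2.0.8. The authors deposited estimated counts per gene with no normalization, in a filtered table in which each gene reached at least 10 counts in some sample. The counting model, its use of strand and the annotation are not given in the sources used here. A table of the authors' own comparison (p-values, ratios and fold changes) was not used.

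Estimated counts were rounded. edgeR 4.0.16 (R 4.3.3) was fitted on all genes that passed its default filter (minimum count 10, total 15), scaled by the upper quartile as in the study. The model held genotype alone, its quasi-likelihood test was two-sided, and p-values were adjusted over 15826 genes by Benjamini-Hochberg. Standard errors are approximate, from the F statistic. CPM are relative to the scaled total counts. Per-length levels used the longest GENCODE M21 transcript. Symbols matched GENCODE M21 directly for 18637 genes, by synonym for 2 and not for 421. Alternatives used DESeq2 1.42.0, limma 3.58.1, other scalings and filters, a length and GC correction per sample, thinned control counts, a replicate block and fits without each sample. The scripts were tested on simulated counts.

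A count of 3, the limit that 0 counts allow, is 0.0825 to 0.0874 CPM in control and 0.256 to 0.655 CPM in mutant samples, which covers counting error only.

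The 7 genes, the lists and the alternatives were chosen with earlier results of these data known. Named are the 7 genes, other pathway genes past a threshold and otherwise up to 3 per group by level, the 2 nearest profiles of each gene, Fgfr1 and the 2 highest markers of a list quoted, and exceptions are stated. Of the genes that this rule names, 2 are not reported here. Data other than these counts were not analysed here.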

Additional observations from a re-analysis of the deposited data

How the results depend on the processing

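Over 15 alternatives, the direction of Alpl, Ank, Slc20a2, Fam20c and Fgfr1 did not change. Ank and Slc20a2 kept the study's threshold in 13, Fam20c in 14 and Fgfr1 in 15. The correction for length and GC content left 0 of the 7 genes past the study's threshold, beside 2384 of all 15826 genes tested. It moved the log2 ratio difference of Alpl to Enpp1 to -0.16. Adjusted p under 0.05 was reached by 1 of the 7 with total counts (Fam20c) and by 3 with DESeq2. Slc20a1 turned below 0 with TMM (-0.092), total counts (-0.258), DESeq2 (-0.032), no filter (-0.011), a mean of at least 50 counts (-0.007), the replicate block (-0.125), thinned control counts (-0.067), and ran from -0.502 to 0.335 without 1 sample, below 0 without control sample 1, control sample 2 or mutant sample 3. Phospho1 turned to -0.575 with limma-voom and ran from -0.488 (without mutant sample 1) to 1.031 without 1 sample, and Enpp1 from -0.434 to 0.026 (without control sample 2). The cause of these changes was not tested.

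Of the 34 pathway genes, 1 passed at an adjusted p under 0.05, against 5 with DESeq2, 2 with limma-voom, 0 without a filter, 0 at a mean of 50 or more counts, 0 with the replicate block, 0 with the length and GC correction, 0 with thinned control counts and 0 to 1 without 1 sample. By the study's threshold 5 passed, against 10 with total counts, 9 with DESeq2, 9 with limma-voom, 9 with the block, 8 with the length and GC correction and 3 to 8 without 1 sample. Over all genes 1074 passed at an adjusted p under 0.05, against 1609 with DESeq2, 1340 with limma-voom and 1137 with total counts. Fewer passed without a filter (229), at a mean of 50 or more counts (370) and with the block (508). The length and GC correction gave 140, thinned counts 362 and fits without 1 sample 76 to 606. By the study's threshold 3137 passed, against 3588 with total counts, 3358 with DESeq2 and 3769 with limma-voom. The block gave 2743, the length and GC correction 2384, no filter 4733 and fits without 1 sample 2006 to 4732. Total counts gave 1253 higher and 2335 lower against 1726 and 1411, and moved the median of all genes from -0.04 to -0.30. TMM, limma-voom and the block moved it to -0.13, -0.29 and -0.27.

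Same-numbered control and mutant samples deviated together with correlations of 0.0742, 0.0228 and 0.0883, which does not pair them beyond the number itself. With the replicate number as a block, Ank, Slc20a2 and Fam20c passed the study's threshold, as without it. The depth of mutant sample 1, with 42 counts of Slc20a1, limits the low genes most.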
